A study of Mus musculus with 4 samples.

Results

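The genes described here are 39 interferon-stimulated genes out of 23361 genes measured by RNA sequencing in cultured mouse mammary tumour cells. They were taken by name from a list that was chosen with earlier results of these data known. All 39 were found in the table. The 4 libraries came from tumour cells of C3HeB/FeJ mice carrying the Chaos3 mutation in the replication helicase gene Mcm4, and all 4 share that background. The High libraries, numbered 1 and 2, are labelled as high in Arid1a, which encodes an ARID-domain protein of SWI/SNF-type chromatin remodellers: 1 came from each of the clones AB-C1 and AB-C2, which had received a lentiviral vector that overexpresses Arid1a. The 2 Low libraries, labelled as low in Arid1a, are duplicates of the tumour cells without the vector. The numbers only name the High libraries, since the table does not say which is AB-C1. Each clone has 1 library, so differences between the clones and the effect of the vector cannot be told apart. Each High library was therefore set apart against the Low pair.

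Type I interferons bind a receptor made of IFNAR1 and IFNAR2, whose kinases JAK1 and TYK2 phosphorylate STAT transcription factors. STAT2 and IRF9 are subunits of the ISGF3 complex, which binds interferon-stimulated response elements (ISRE) in front of antiviral genes, while other STAT complexes bind gamma-activated sites (GAS). In tumour cells, the same genes can also be active at a low level without added interferon, and some of their products (sensors of foreign RNA and DNA) act upstream of interferon itself.

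The promoters show which of these elements stand in front of the members. A RefSeq promoter (build GRCm38.p6) was matched for 30 of the 39 members, and the 250 bases before the start were searched on both strands for the ISRE core GAAANNGAAA and the GAS core TTCNNNGAA. The ISRE core was found in 10 of the 30 members (33.3%), namely Isg15, Ifit1, Ifit3, Oas1a, Oas3, Bst2, Stat2, Rsad2, Gbp2 and Gbp3, against 936 of 27025 genes with a promoter (3.46%). Counted by window, of which some genes have several, the shares were 10 of 36 (27.8%) and 978 of 32851 (2.98%). The GAS core was found in 8 of the 30 members (26.7%) and in 2197 of the 27025 genes (8.13%). No promoter was matched for Oas2, Zbp1, Rtp4, Mx2, Parp9, Mx1, Parp14, Dhx58 and Usp18.

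Of the promoters below, 3 carry the ISRE core in front of members called higher in High library 1 than in High library 2 (Isg15 at chr4:156200819-156201068, minus strand, Ifit3 at chr19:34583279-34583528, plus strand, and Bst2 at chr8:71537473-71537722, minus strand). Their log2 differences were 3.08, 5.98 and 1.68, beside a median of 1.69 over the tested members. The other 2 carry only the GAS core, in front of the receptor chain Ifnar2 (chr16:91372533-91372782, plus strand) and of Irf1 (chr11:53769764-53770013, plus strand, the upstream of its 2 windows), neither of which was called between the High libraries. Members with no ISRE core in this window also differed: Ifit2 and Eif2ak2, which carry the GAS core, were called higher in High library 1 than in High library 2 (log2 3.54 and 1.49), as was Ifi44, which carries neither (log2 6.47), while Rsad2 carries an ISRE core and was not called. Each promoter shown is written in the direction of transcription, with the matches to either core in capitals.
Isg15: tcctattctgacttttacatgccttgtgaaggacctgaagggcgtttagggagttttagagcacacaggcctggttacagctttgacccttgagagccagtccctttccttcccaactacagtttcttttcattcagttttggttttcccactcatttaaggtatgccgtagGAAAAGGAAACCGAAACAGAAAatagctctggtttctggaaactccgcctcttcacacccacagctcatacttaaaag
Ifit3: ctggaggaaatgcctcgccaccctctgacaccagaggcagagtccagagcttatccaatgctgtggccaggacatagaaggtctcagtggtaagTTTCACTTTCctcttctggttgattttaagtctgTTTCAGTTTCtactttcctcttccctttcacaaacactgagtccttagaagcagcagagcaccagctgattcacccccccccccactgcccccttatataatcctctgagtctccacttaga
Bst2: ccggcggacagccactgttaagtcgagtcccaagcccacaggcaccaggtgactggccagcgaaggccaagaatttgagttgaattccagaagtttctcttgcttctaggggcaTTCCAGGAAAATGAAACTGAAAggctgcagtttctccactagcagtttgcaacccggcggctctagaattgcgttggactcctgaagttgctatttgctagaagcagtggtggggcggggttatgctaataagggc
Ifnar2: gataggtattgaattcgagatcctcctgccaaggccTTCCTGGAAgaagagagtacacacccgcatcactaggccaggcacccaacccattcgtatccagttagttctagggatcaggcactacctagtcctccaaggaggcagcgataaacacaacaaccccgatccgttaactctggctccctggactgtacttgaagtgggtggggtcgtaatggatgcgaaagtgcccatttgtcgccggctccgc
Irf1: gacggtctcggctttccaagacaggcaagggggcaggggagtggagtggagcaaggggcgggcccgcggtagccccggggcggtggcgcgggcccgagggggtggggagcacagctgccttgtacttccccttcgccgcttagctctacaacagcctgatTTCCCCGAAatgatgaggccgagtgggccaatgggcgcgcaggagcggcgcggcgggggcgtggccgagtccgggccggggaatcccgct
In Isg15, 3 overlapping ISRE cores lay 56 to 68 bases before the start. Ifit3 had 2 ISRE cores on the other strand, 112 and 146 bases before it. In Bst2, 2 overlapping ISRE cores lay 114 and 120 bases before the start and ran into a GAS core, the only such overlap among the matched members. The GAS core lay 205 bases before the start of Ifnar2 and 81 bases before that of Irf1. A match is a run of letters and does not show that a factor bound there. Only the spacing GAAANNGAAA was searched, so a similar repeat spaced otherwise, such as TTTCGTTTC in the Ifi44 window, was not counted.

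The High libraries held 16523077 and 24307249 fragments and the Low libraries 13889856 and 28110812. Levels are given as TMM-normalised CPM (counts scaled to a common library size), and as FPKM, which also divides by transcript length, where genes are compared with each other. Arid1a itself was lower in the libraries labelled High, at 49.8 and 58.3 CPM, than in the libraries labelled Low, at 82.2 and 94.2 CPM, with a log2 fold change of -0.71 ± 0.23 (SE) that stayed short of the threshold in edgeR (adjusted p = 0.165). Set apart against the Low pair, High library 1 was called lower in Arid1a, against its label (log2 -0.82 ± 0.30, adjusted p = 0.0362), and High library 2 did not pass (log2 -0.60 ± 0.30, adjusted p = 0.167). Whether fragments of the vector were assigned to this gene is not known, so the value is a partial check of the label, and the directions below are those of the libraries labelled High, not of measured Arid1a RNA. The spread was wider between the High libraries (biological coefficient of variation 42.4%) than between the Low duplicates (17.3%).

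Markers of other cells were examined for what else the cultures might hold. Of 16 immune cell markers in the table, 9 had 0 fragments in every library, among them Cd3e, C1qa and Nkg7, and the pan-leukocyte gene Ptprc had 0 and 5 fragments in the High libraries and 2 and 8 in the Low libraries. The summed level of the 16 was 22.2 and 28.3 CPM in the High libraries and 9.77 and 9.95 CPM in the Low libraries, nearly all of it from Csf1r, the receptor of colony-stimulating factor, at 20.8 and 27.4 CPM in the High libraries against 8.67 and 8.67 CPM in the Low libraries. Of 6 endothelial markers, 0 passed the filter on low counts. The cells are labelled as mammary tumour cells, and the mammary basal keratin Krt14 was at 1271 and 2647 CPM in the High libraries and at 973 and 614 CPM in the Low libraries, while Krt5 had 0, 25, 10 and 6 fragments in High library 1, High library 2, Low library 1 and Low library 2. Krt8 was at 224 CPM in High library 1, below both Low libraries at 647 and 443 CPM, and at 879 CPM in High library 2. The 11 epithelial markers summed to 2646 CPM in High library 1, 6636 CPM in High library 2, and 2957 and 2052 CPM in the Low libraries. Against the Low pair, 3 of the 11 were called higher and 2 lower in High library 1, and 7 higher and 1 lower in High library 2. The 9 fibroblast markers summed to 1225 and 473 CPM in the High libraries and to 6819.6 and 6186 CPM in the Low libraries, with Lum at 0 in every library. Most of the Low sum came from Col1a1, Col1a2 and Col3a1. Against the Low pair, 2 of the 8 tested fibroblast markers were called higher and 5 lower in High library 1, and 1 higher and 7 lower in High library 2. Over all genes tested, 10.7% were called higher and 8.19% lower in High library 1, and 9.16% and 8.15% in High library 2. Dcn was called higher in both, at 195 and 19.6 CPM in the High libraries against 4.19 and 5.45 CPM in the Low libraries, and Pdgfra was called higher in High library 1 (log2 1.41) and lower in High library 2 (log2 -1.73). Between the High libraries, 6.47% of all genes tested were called higher in library 1 and 4.46% lower. Of the 11 epithelial markers, 9 were called lower in library 1 and 1 higher (Elf5), while of 8 tested fibroblast markers 6 were called higher and 1 lower. These lists therefore move with the same pair of libraries as the results below, and their part in those results was not tested. In bulk RNA, fewer cells of a type and less RNA per cell cannot be told apart.

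Many interferon-stimulated genes were higher than the Low pair in High library 1, and many were lower in High library 2. In High library 1, 23 members were called higher than the Low pair and 1 lower, and in High library 2, 0 were called higher and 16 lower. A call means an adjusted p below 0.05 in edgeR's quasi-likelihood test. Of the 39 members, 38 passed the filter on low counts. Over all 12987 genes tested, High library 1 had 10.7% called higher and 8.19% called lower, and High library 2 had 9.16% called higher and 8.15% called lower. The median log2 fold change of the 38 members was 1.23 in High library 1, against -0.01 over all genes tested, and -0.80 in High library 2, against -0.00 over all genes tested. Both comparisons use the same Low pair, so they are not independent of each other. The direct contrast of the High libraries does not use the Low pair's level: 25 members were called higher in High library 1 than in High library 2 and 0 lower, where 6.47% of all genes were called higher and 4.46% lower, with a median log2 difference of 1.69 among members and -0.02 among all genes tested.

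**Figure D1:**
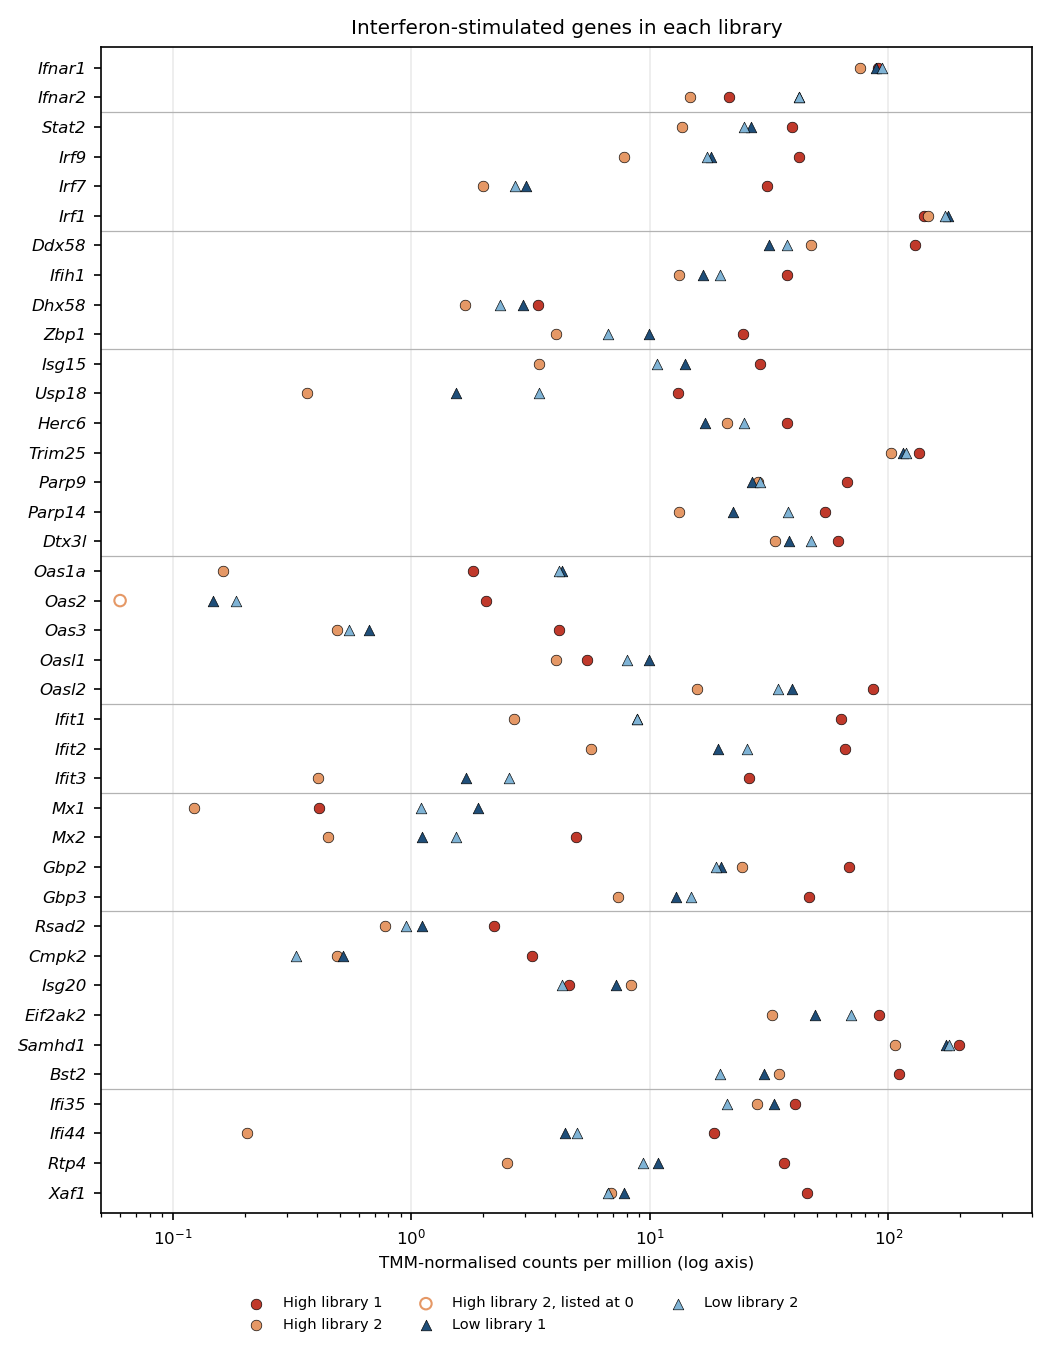
Level of each of the 39 members in each library, in TMM-normalised CPM on a log axis, with members grouped by role from receptor (top) to effectors (bottom). Circles are the High libraries and triangles the Low libraries, and the open circle marks Oas2, listed at 0 in High library 2. High library 1 lies to the right of both Low libraries for most members and High library 2 to the left of them, with Ifit1 at 63.4 CPM in High library 1, 2.69 CPM in High library 2, and 8.82 and 8.85 CPM in the Low libraries.

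Summed over the 39 members, the level was 1883 CPM in High library 1, 811 CPM in High library 2, and 1091 and 1128 CPM in the Low libraries. Per length, the median member was at 17.3 FPKM in High library 1, 2.97 FPKM in High library 2, and 5.24 and 5.87 FPKM in the Low libraries. The member with the highest FPKM was Bst2 in High library 1, at 194 FPKM, and Irf1 in each of the other libraries, at 74.6 FPKM in High library 2 and 91.3 and 88.4 FPKM in the Low libraries. Relative to both Low libraries, High library 1 lay above for 31 of the 38 tested members, where 40.6% of all genes did, and below for 5, where 40.1% did. High library 2 lay above for 4, where 40.7% of all genes did, and below for 29, where 39.7% did. High library 1 lay above High library 2 for 36 of the 38, where 48.8% of all genes did.

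Calls in each High library rest on 1 residual degree of freedom, from the Low duplicates, and assume that a lone High library varies as they do. With the wider dispersion of the fit with 2 groups, an alternative chosen after seeing the data, the counts were 12 higher in High library 1, 4 lower in High library 2 and 15 higher in High library 1 than in High library 2. Of the 12987 genes tested, 961, 988 and 445 were then called in these comparisons, counting both directions. The 12 were Irf7, Ddx58, Usp18, Ifit1, Ifit2, Ifit3, Gbp2, Gbp3, Cmpk2, Bst2, Rtp4 and Xaf1, the 4 were Ifit2, Ifi44, Oas1a and Rtp4, and the 15 were Irf7, Irf9, Zbp1, Isg15, Usp18, Parp14, Oasl2, Ifit1, Ifit2, Ifit3, Gbp3, Bst2, Ifi44, Rtp4 and Xaf1. DESeq2 did not call Ifih1, Herc6, Parp14, Oas3, Mx2 and Cmpk2 in High library 1, Stat2, Oasl1, Mx1 and Eif2ak2 in High library 2, or Oas1a, Oas3, Mx2 and Cmpk2 between the High libraries. That last call of Cmpk2 was also lost with no filter on low counts and with a filter that lets a gene pass on 1 library.

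**Figure D2:**
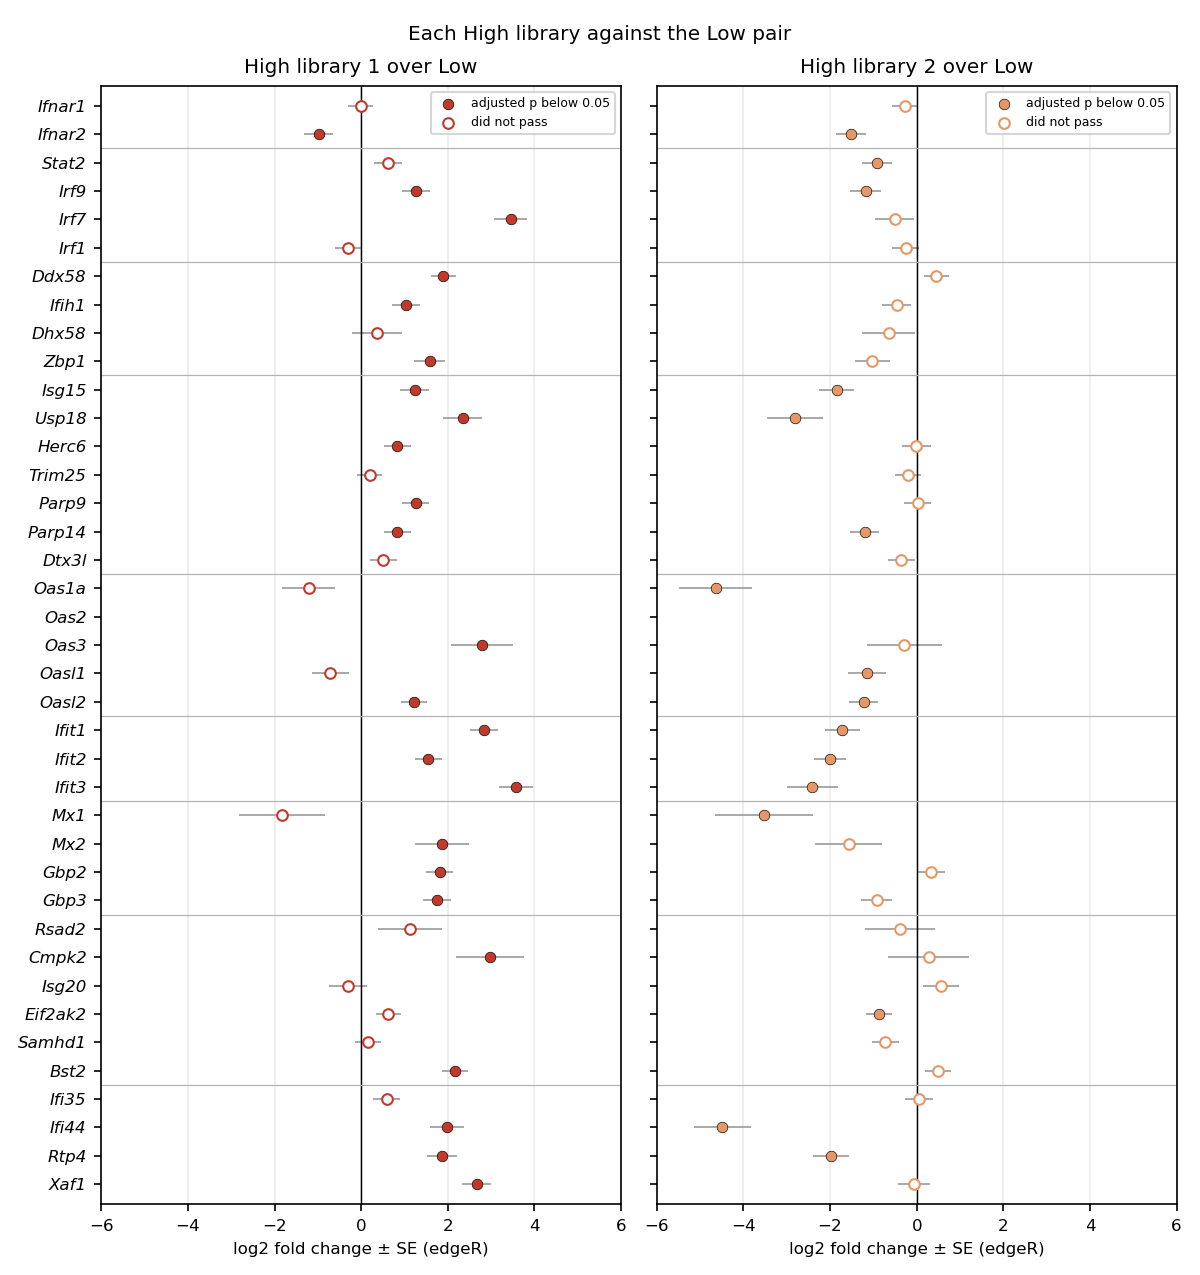
Log2 fold change of each member in High library 1 (left) and High library 2 (right) over the Low pair, with its standard error from edgeR. Filled points passed an adjusted p of 0.05 and open points did not. Points lie mainly right of 0 on the left and left of 0 on the right, as for Ifi44, at 1.99 in High library 1 and -4.49 in High library 2. Oas2 was not tested and has no point.

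Of the receptor chains, 0 were called higher in either High library, and Ifnar2 was called lower in both. Shares over all genes tested were 10.7% higher and 8.19% lower in High library 1, and 9.16% and 8.15% in High library 2. Ifnar1, which encodes the low-affinity chain of the type I receptor, was at 90.7 and 75.7 CPM in the High libraries and 88.4 and 93.8 CPM in the Low libraries. High library 1 lay between the Low libraries, and neither High library passed (log2 -0.01 ± 0.29 and -0.27 ± 0.29, adjusted p = 0.989 and 0.614). Ifnar2, the chain that binds interferon with high affinity, was at 21.4 and 14.7 CPM in the High libraries and 42.2 and 42.2 CPM in the Low libraries. Both High libraries lay below both Low libraries, and it was the only member called lower in High library 1 (log2 -0.98 ± 0.34, adjusted p = 0.0244), beside a call in High library 2 (log2 -1.52 ± 0.35, adjusted p = 0.000141). Neither call held with the wider dispersion, and in the comparison of the groups its log2 fold change of -1.23 ± 0.29 did not pass (adjusted p = 0.0769). DESeq2, and edgeR with no filter on low counts, called Ifnar2 lower in that comparison. The other alternatives that kept all 4 libraries did not. The exons of Ifnar2 overlap those of Gm21970 on the same strand, so their reads could be split.

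Among the transcription factors, Irf7 and Irf9 differed most. Irf7 (chromosome 7, 141262706 to 141266481, minus strand), which amplifies interferon production, was at 31.1 CPM in High library 1, 1.99 CPM in High library 2, and 3.01 and 2.71 CPM in the Low libraries. High library 1 stood 10.9-fold above the Low pair (log2 3.45 ± 0.38, adjusted p = 5.9e-18), while High library 2 lay below both Low libraries without passing (log2 -0.51 ± 0.44, adjusted p = 0.502). Irf9, the DNA-binding subunit of ISGF3, was at 42.2 CPM in High library 1, 7.82 CPM in High library 2, and 18.0 and 17.3 CPM in the Low libraries. It was called higher in High library 1 (log2 1.26 ± 0.32, adjusted p = 0.0011) and lower in High library 2 (log2 -1.17 ± 0.36, adjusted p = 0.0092), with neither High library inside the Low range. Stat2, the STAT of that complex that carries the main activation domain, was at 39.3 CPM in High library 1, 13.6 CPM in High library 2, and 26.5 and 24.8 CPM in the Low libraries. The High libraries lay on opposite sides of the Low pair, and the call was for the lower level in High library 2 (log2 -0.91 ± 0.34, adjusted p = 0.0446), against log2 0.62 ± 0.32 in High library 1 (adjusted p = 0.178). That call was also lost without a filter on low counts and when High library 1 was left out of the fit. Irf1, a factor that interferon gamma induces strongly through its GAS element, was at 141 and 146 CPM in the High libraries and 178 and 172 CPM in the Low libraries. The High libraries both lay below both Low libraries, at log2 -0.31 ± 0.30 and -0.26 ± 0.30, and neither passed (adjusted p = 0.551 and 0.645). Exons of Irf7 overlap Phrf1, and those of Irf1 overlap Gm17334, on the other strand, while Irf9 overlaps Rnf31 on the same strand.

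**Figure D3:**
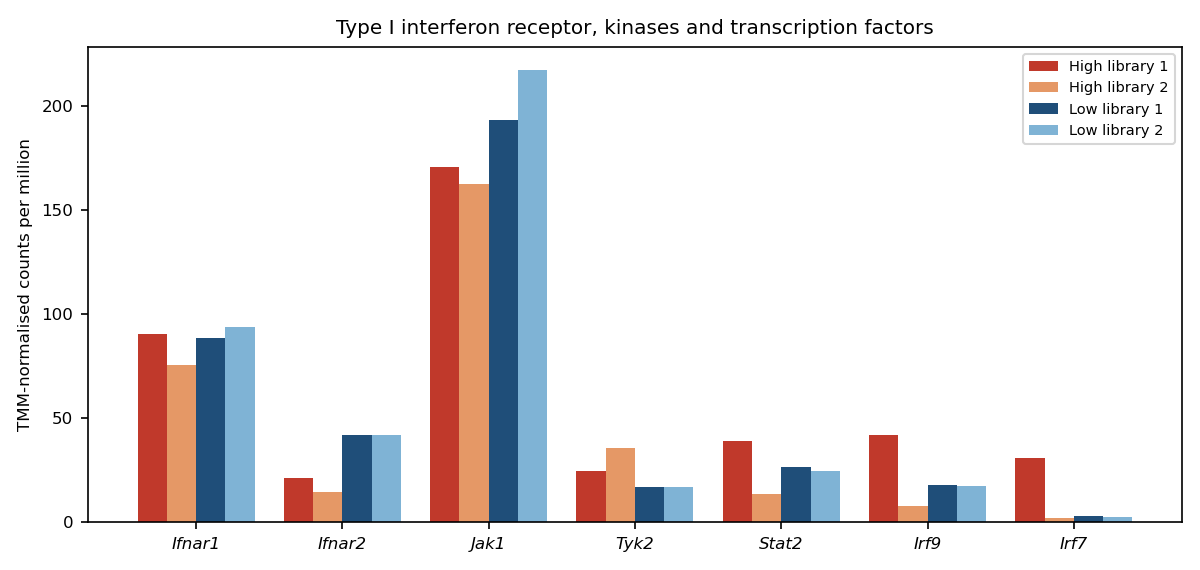
Level of the type I receptor chains (Ifnar1, Ifnar2), the receptor kinases (Jak1, Tyk2) and the transcription factors (Stat2, Irf9, Irf7) in each library, in TMM-normalised CPM. Each bar is 1 library. The factors are highest in High library 1, with Irf9 at 42.2 CPM there against 18.0 and 17.3 CPM in the Low libraries, whereas the receptor chains and Jak1 are not.

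Few genes of the same pathway outside the 39 were called. Of 15 further receptor and JAK-STAT genes, all tested, 1 was called higher and 1 lower in High library 1, and 2 higher and 1 lower in High library 2, against the Low pair. Over all genes tested, 10.7% were called higher and 8.19% lower in High library 1, and 9.16% and 8.15% in High library 2. The counts of this short list lie near those shares. Jak2, a kinase of the interferon gamma receptor, was at 132 and 132 CPM in the High libraries and 45.0 and 58.4 CPM in the Low libraries, and rose in both (log2 1.35 ± 0.28, adjusted p = 2.93e-05, and 1.34 ± 0.28, adjusted p = 2.73e-05). Ifngr2, a chain of that receptor, fell in both, at 40.9 and 36.4 CPM in the High libraries and 75.9 and 77.6 CPM in the Low libraries (log2 -0.91 ± 0.31, adjusted p = 0.0214, and -1.07 ± 0.31, adjusted p = 0.00472). Tyk2 rose in High library 2, where it was at 35.5 CPM, with 24.8 CPM in High library 1 and 16.8 and 17.1 CPM in the Low libraries (log2 1.07 ± 0.32, adjusted p = 0.00718). Jak1 was at 171 and 163 CPM in the High libraries and 193 and 218 CPM in the Low libraries and did not pass in either (adjusted p = 0.617 and 0.521).

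Interferon transcripts were scarce. Of 19 interferon genes in the table, 14 had 0 fragments in every library and 1, Ifna13, passed the filter on low counts. Ifnb1, the interferon that most cell types can make, had 4 and 0 fragments in the High libraries and 0 and 18 in the Low libraries. The 19 genes summed to 0.467 and 1.34 CPM in the High libraries and 0.735 and 1.10 CPM in the Low libraries. A count of 0 allows up to 3 fragments per library, and intervals and floors cover counting error only.

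Of the 4 cytosolic sensors among the members, 3 were called higher in High library 1 and 0 were called in High library 2. Of all genes tested, 10.7% were called higher and 8.19% lower in High library 1, and 9.16% and 8.15% in High library 2. Ddx58, which encodes the RNA helicase RIG-I, was at 129 CPM in High library 1, 47.3 CPM in High library 2, and 31.5 and 37.5 CPM in the Low libraries. Both High libraries lay above both Low libraries, and it was called in High library 1 (log2 1.90 ± 0.28, adjusted p = 6.61e-10) but not in High library 2 (log2 0.45 ± 0.29, adjusted p = 0.323). Ifih1, which encodes the long-RNA sensor MDA5, was at 37.4 CPM in High library 1, 13.2 CPM in High library 2, and 16.7 and 19.6 CPM in the Low libraries. High library 1 was called higher (log2 1.04 ± 0.32, adjusted p = 0.0104), with High library 2 below both Low libraries (log2 -0.46 ± 0.34, adjusted p = 0.406). Zbp1, a sensor of left-handed nucleic acid, was at 24.6 CPM in High library 1, 4.03 CPM in High library 2, and 9.92 and 6.70 CPM in the Low libraries. The call was for High library 1 (log2 1.58 ± 0.35, adjusted p = 0.000123), and High library 2, below both Low libraries, did not pass (log2 -1.03 ± 0.40, adjusted p = 0.0576). Dhx58, which encodes the regulatory helicase LGP2, was at 3.39 and 1.67 CPM in the High libraries and 2.94 and 2.34 CPM in the Low libraries and passed in no comparison.

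Of 19 tested genes that act between sensing and interferon production, 3 were called higher and 0 lower in High library 1, and 3 higher and 1 lower in High library 2. These counts are small and lie near the shares of all genes tested. Those were 10.7% higher and 8.19% lower in High library 1, and 9.16% and 8.15% in High library 2. Tmem173, which encodes the DNA-sensing adaptor STING, was at 20.4 CPM in High library 1, 4.27 CPM in High library 2, and 24.5 and 22.0 CPM in the Low libraries. It fell in High library 2 (log2 -2.44 ± 0.40, adjusted p = 2.26e-08), whereas its log2 fold change of -0.18 ± 0.34 in High library 1 did not pass (adjusted p = 0.775). Tlr3, an endosomal RNA sensor, rose in both, at 81.9 and 68.1 CPM in the High libraries and 20.5 and 32.7 CPM in the Low libraries (log2 1.61 ± 0.29, adjusted p = 8.47e-07, and 1.35 ± 0.29, adjusted p = 5.94e-05). The endotoxin receptor gene Tlr4 and the peptidoglycan sensor gene Nod1 were the others called higher in High library 1, at 24.5 and 20.3 CPM there. The kinase gene Ikbke and the transcription factor gene Irf3 were the others called higher in High library 2, at 10.5 and 34.4 CPM there.

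Isg15, Usp18 and Parp14 were called in opposite directions in the High libraries. Of the 7 members of the ubiquitin-like modifier and ADP-ribosylation systems, 5 were called higher and 0 lower in High library 1, and 0 higher and 3 lower in High library 2. The shares of all genes tested were 10.7% higher and 8.19% lower in High library 1, and 9.16% and 8.15% in High library 2. Isg15, the modifier whose promoter carries 3 overlapping ISRE cores, was at 28.9 CPM in High library 1, 3.42 CPM in High library 2, and 14.0 and 10.7 CPM in the Low libraries. It was 2.35-fold higher in High library 1 (log2 1.23 ± 0.34, adjusted p = 0.003) and 3.59-fold lower in High library 2 (log2 -1.84 ± 0.40, adjusted p = 7.28e-05). Usp18 (chromosome 6, 121245906 to 121270917, plus strand), the protease that removes ISG15 and also dampens receptor signalling, was at 13.1 CPM in High library 1, 0.366 CPM in High library 2, and 1.54 and 3.44 CPM in the Low libraries. It was 5.07-fold higher in High library 1 (log2 2.34 ± 0.44, adjusted p = 2.9e-06) and 6.96-fold lower in High library 2 (log2 -2.80 ± 0.65, adjusted p = 0.000197), where 9 fragments were counted. Herc6, the main ligase for ISG15 in the mouse, was at 37.7 CPM in High library 1, 21 CPM in High library 2, and 17.0 and 24.9 CPM in the Low libraries. High library 2 lay between the Low libraries, and the call in High library 1 was near the threshold (log2 0.84 ± 0.32, adjusted p = 0.0466) and was lost with no filter on low counts. Trim25, a ubiquitin ligase that acts on RIG-I, was at 134 and 102 CPM in the High libraries and 116 and 119 CPM in the Low libraries and passed in no comparison.

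Parp9 and Parp14, of the ADP-ribosyltransferase family, and Dtx3l, the ubiquitin ligase that partners PARP9, lie together on chromosome 16. Parp9 was at 66.8 CPM in High library 1, 28.3 CPM in High library 2, and 26.9 and 28.9 CPM in the Low libraries, and was called higher in High library 1 (log2 1.26 ± 0.30, adjusted p = 0.000476) with High library 2 inside the Low range. Parp14 was at 54.0 CPM in High library 1, 13.2 CPM in High library 2, and 22.3 and 38.0 CPM in the Low libraries. edgeR called it higher in High library 1 (log2 0.83 ± 0.31, adjusted p = 0.0411) and lower in High library 2 (log2 -1.20 ± 0.34, adjusted p = 0.00407), and the call in High library 1 was lost with no filter on low counts. Dtx3l was at 61.3 CPM in High library 1, 33.6 CPM in High library 2, and 38.1 and 47.6 CPM in the Low libraries and passed in no comparison. Parp9 and Dtx3l overlap at their ends on opposite strands (a gap of -682 bases in the annotation). The library kit keeps strand, but the strand setting of the counting is not given in the sources used here, so their reads may be mixed. The same holds for Dhx58, Usp18, Oasl1, Gbp2, Eif2ak2 and Ifi35, whose exons overlap another gene on the other strand, while Herc6, Parp14 and Rtp4 overlap another gene on their own strand.

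The oligoadenylate synthetase family was mixed. Of the 4 tested, Oas3 and Oasl2 were called higher in High library 1, and Oas1a, Oasl1 and Oasl2 were called lower in High library 2. Among all genes tested, 10.7% were called higher in High library 1 and 8.15% lower in High library 2. Oas1a (chromosome 5, 120896256 to 120907521, minus strand), an enzyme whose product activates RNase L, was at 1.81 CPM in High library 1, 0.163 CPM in High library 2, and 4.26 and 4.17 CPM in the Low libraries. The High libraries both lay below both Low libraries, with a call in High library 2 (log2 -4.64 ± 0.85, adjusted p = 8.98e-07, 4 fragments) and none in High library 1 (log2 -1.22 ± 0.62, adjusted p = 0.17). Oas3, the largest synthetase, was at 4.15 CPM in High library 1, 0.489 CPM in High library 2, and 0.661 and 0.549 CPM in the Low libraries. It was called higher in High library 1 (log2 2.79 ± 0.71, adjusted p = 0.00108), and in High library 2 it rested on 12 fragments and did not pass (log2 -0.28 ± 0.86, adjusted p = 0.874). Oas2, between them in size, did not pass the filter: it had 35 fragments in High library 1, 0 in High library 2, and 2 and 5 in the Low libraries. Its ratio to the Low pair in High library 1 was 12 (95% exact interval 5.23 to 31.9, counting error only).

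The synthetase-like members Oasl1 and Oasl2 lie side by side on chromosome 5. Oasl1, which restrains translation of Irf7 mRNA in the mouse, was at 5.43 and 4.03 CPM in the High libraries and 9.92 and 8.01 CPM in the Low libraries. Both High libraries lay below both Low libraries, and High library 2 was called (log2 -1.15 ± 0.43, adjusted p = 0.0469, a call lost with no filter on low counts), against log2 -0.72 ± 0.43 in High library 1 (adjusted p = 0.26). Oasl2 was at 85.9 CPM in High library 1, 15.8 CPM in High library 2, and 39.4 and 34.5 CPM in the Low libraries. The call was for a higher level in High library 1 (log2 1.22 ± 0.30, adjusted p = 0.000572) and a lower one in High library 2 (log2 -1.23 ± 0.33, adjusted p = 0.00216). Close copies of these genes and of the Ifit, Mx and Gbp genes exist, so the authors' counting could have split reads between copies.

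All 3 Ifit genes, which encode proteins that bind foreign RNA and block its translation, were called higher in High library 1 and lower in High library 2. By comparison, 10.7% of all genes tested were called higher in High library 1 and 8.15% lower in High library 2. The Ifit genes lie together on the plus strand of chromosome 19. Ifit1 (34640871 to 34650009) was at 63.4 CPM in High library 1, 2.69 CPM in High library 2, and 8.82 and 8.85 CPM in the Low libraries. This was 7.18-fold higher in High library 1 (log2 2.84 ± 0.33, adjusted p = 2.3e-16) and 3.28-fold lower in High library 2 (log2 -1.72 ± 0.40, adjusted p = 0.000214). Ifit2 (34550694 to 34576419) was at 65.8 CPM in High library 1, 5.66 CPM in High library 2, and 19.2 and 25.6 CPM in the Low libraries, which gave log2 1.55 ± 0.31 in High library 1 (adjusted p = 1.16e-05) and log2 -1.99 ± 0.37 in High library 2 (adjusted p = 1.27e-06). Ifit3 (34583531 to 34588731), whose promoter is shown above, was at 26 CPM in High library 1, 0.407 CPM in High library 2, and 1.69 and 2.56 CPM in the Low libraries. High library 1 was 11.9-fold above the Low pair (log2 3.57 ± 0.40, adjusted p = 2.67e-17) and High library 2 was 5.30-fold below it (log2 -2.41 ± 0.59, adjusted p = 0.000608), on 10 fragments. In none of the 3 did a High library fall inside the Low range.

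Of the antiviral GTPases, Mx2, Gbp2 and Gbp3 were called higher in High library 1, and Mx1 was called lower in High library 2. Called shares of all genes tested were 10.7% higher in High library 1 and 8.15% lower in High library 2. Mx1, a dynamin-like restriction factor, had 7 and 3 fragments in the High libraries and 26 and 30 in the Low libraries. Its ratio to the Low pair was 0.299 (95% exact interval 0.115 to 0.658) in High library 1 and 0.0893 (0.0179 to 0.275) in High library 2, and the second was called lower by edgeR (adjusted p = 0.0142). Mx2, annotated as a polymorphic pseudogene in the reference strain, was at 4.91 CPM in High library 1, 0.448 CPM in High library 2, and 1.10 and 1.54 CPM in the Low libraries. High library 1 was called higher (log2 1.86 ± 0.61, adjusted p = 0.0175), and the 11 fragments of Mx2 in High library 2 lay below both Low libraries without passing (log2 -1.57 ± 0.78, adjusted p = 0.168). Gbp2, a guanylate-binding protein that attacks pathogen vacuoles, was at 68.1 CPM in High library 1, 24.3 CPM in High library 2, and 19.8 and 19.0 CPM in the Low libraries. The High libraries both lay above both Low libraries, with a call in High library 1 (log2 1.81 ± 0.31, adjusted p = 1.15e-07) and none in High library 2 (log2 0.32 ± 0.32, adjusted p = 0.564). Its neighbour Gbp3 was at 46.6 CPM in High library 1, 7.33 CPM in High library 2, and 12.9 and 14.9 CPM in the Low libraries. It was called in High library 1 (log2 1.75 ± 0.32, adjusted p = 1.57e-06), and High library 2, below the Low pair, did not pass (log2 -0.92 ± 0.36, adjusted p = 0.0578).

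Among the other antiviral effectors, Bst2 and Cmpk2 were called higher in High library 1 and Eif2ak2 was called lower in High library 2. Across all genes tested, 10.7% were called higher in High library 1 and 8.15% lower in High library 2. Bst2, which encodes tetherin, the protein that holds budding virus at the cell surface, was at 111 CPM in High library 1, 34.6 CPM in High library 2, and 30.0 and 19.6 CPM in the Low libraries. Both High libraries lay above both Low libraries, but only High library 1 passed (log2 2.17 ± 0.29, adjusted p = 8.24e-12, against log2 0.49 ± 0.30, adjusted p = 0.3). Cmpk2, a mitochondrial nucleotide kinase, was at 3.21 CPM in High library 1, 0.489 CPM in High library 2, and 0.514 and 0.329 CPM in the Low libraries. edgeR called it higher in High library 1 (log2 2.97 ± 0.79, adjusted p = 0.00194), with High library 2 inside the Low range. Rsad2, its neighbour on chromosome 12, which encodes viperin, was at 2.22 and 0.773 CPM in the High libraries and 1.10 and 0.951 CPM in the Low libraries and passed in no comparison. Eif2ak2, which encodes the RNA-activated kinase PKR, was at 91.6 CPM in High library 1, 32.6 CPM in High library 2, and 49.0 and 69.4 CPM in the Low libraries. Its High libraries lay on either side of the Low pair, with a call in High library 2 (log2 -0.86 ± 0.30, adjusted p = 0.0303) and none in High library 1 (log2 0.63 ± 0.29, adjusted p = 0.116). The nucleotide hydrolase gene Samhd1 and the exonuclease gene Isg20 passed in no comparison. Samhd1 was at 198 and 107 CPM in the High libraries and 175 and 179 CPM in the Low libraries, while Isg20 was at 4.56 and 8.35 CPM in the High libraries and 7.20 and 4.28 CPM in the Low libraries. With Irf1, Isg20 was 1 of 2 tested members whose fitted level was lower in High library 1 than in High library 2.

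Of the remaining members, Ifi44 had the largest difference between the High libraries among the 38 tested. Ifi44 (chromosome 3, 151730922 to 151749960, minus strand), an interferon-induced protein that limits virus replication, was at 18.6 CPM in High library 1, 0.204 CPM in High library 2, and 4.41 and 4.94 CPM in the Low libraries. It was 3.97-fold higher in High library 1 (log2 1.99 ± 0.39, adjusted p = 6.98e-06) and 22.4-fold lower in High library 2 (log2 -4.49 ± 0.66, adjusted p = 3.9e-10), where 5 fragments were counted. Rtp4 (chromosome 16, 23520291 to 23614222, plus strand), a chaperone that carries taste and opioid receptors to the cell surface, was at 36.5 CPM in High library 1, 2.52 CPM in High library 2, and 10.8 and 9.33 CPM in the Low libraries. It was 3.64-fold higher in High library 1 (log2 1.86 ± 0.34, adjusted p = 9.06e-07) and 3.97-fold lower in High library 2 (log2 -1.99 ± 0.41, adjusted p = 2.69e-05). Xaf1, a pro-apoptotic antagonist of XIAP, was at 45.7 CPM in High library 1, 6.88 CPM in High library 2, and 7.79 and 6.70 CPM in the Low libraries. It was 6.34-fold higher in High library 1 (log2 2.67 ± 0.34, adjusted p = 1.47e-13), while High library 2 lay inside the Low range (log2 -0.07 ± 0.36, adjusted p = 0.934). Ifi35 was at 40.6 and 28.1 CPM in the High libraries and 33.1 and 21.1 CPM in the Low libraries and passed in no comparison.

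The difference between the High libraries was tested directly. For Ifi44 it was log2 6.47 ± 0.68 (SE), or 88.9-fold (adjusted p = 5.12e-19), and for Ifit3 it was log2 5.98 ± 0.61, or 62.9-fold (adjusted p = 8.02e-20). Usp18 followed at log2 5.14 ± 0.68 (adjusted p = 5.51e-12) and Ifit1 at log2 4.56 ± 0.46 (adjusted p = 8.78e-21). These genes had 5, 10, 9 and 66 fragments in High library 2, so that counting error weighs on the size of the first 3. The receptor chains did not pass between the High libraries, at log2 0.26 ± 0.33 for Ifnar1 (adjusted p = 0.749) and 0.55 ± 0.38 for Ifnar2 (adjusted p = 0.452), and neither did Irf1, at log2 -0.05 ± 0.35 (adjusted p = 0.967). By promoter, the 10 tested members with an ISRE core had a median log2 difference between the High libraries of 2.87, with 9 called higher in High library 1. The 20 tested members with a searched promoter and no ISRE core had a median of 1.17, with 10 called higher. All genes tested had a median of -0.02, with 6.47% called higher, so both sets of members lay above that share. The contrast between members with and without an ISRE core was not tested. Both searched windows of Irf9 lay wholly inside the annotated gene, as did 169, 124 and 57 of the 250 bases for Samhd1, Dtx3l and Irf7. Further windows of Gbp3, Irf1, Ifit2 and Isg20 also lay wholly inside the annotated gene. Among windows with an ISRE core, the largest overlap with the annotated gene was 61 bases, for Gbp2. Of the 36 windows, 24 were followed by 30 bases found in an annotated transcript of the gene. A core outside the searched bases would be missed.

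**Figure D4:**
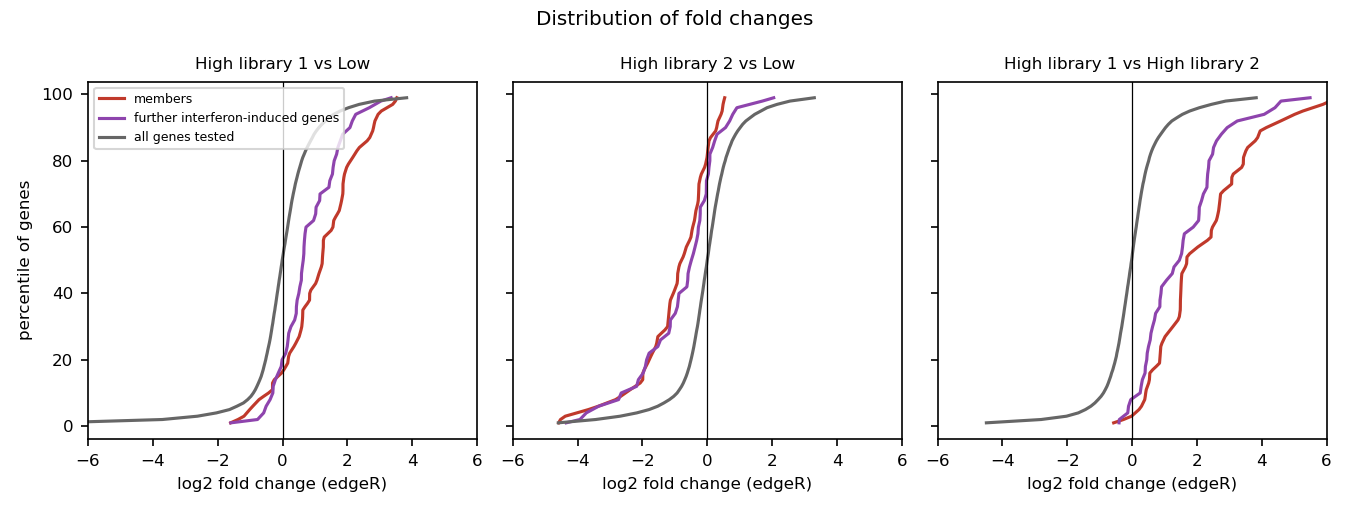
Distribution of log2 fold changes over the members (red), 51 further interferon-induced genes (purple) and all 12987 genes tested (grey), as the log2 fold change (horizontal) at each percentile (vertical). The panels show High library 1 against Low, High library 2 against Low, and High library 1 against High library 2. The members' curve lies right of the grey curve in the left and right panels and left of it in the middle one over most percentiles, with medians of 1.23, -0.80 and 1.69 in the order of the panels.

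A further list of 63 interferon-induced genes outside the 39 was described in the same way, of which 51 passed the filter on low counts. This list too was chosen with earlier results of these data known. In High library 1, 15 were called higher and 0 lower (median log2 0.64), where 10.7% and 8.19% of all genes were (median -0.01). In High library 2, 2 were called higher and 15 lower (median log2 -0.49), where 9.16% and 8.15% of all genes were (median -0.00). Between the High libraries, 23 were called higher in High library 1 and 0 lower (median log2 1.46), where 6.47% and 4.46% of all genes were (median -0.02). Iigp1, an immunity-related GTPase, had 125 fragments in High library 1, 2 in High library 2, and 17 and 17 in the Low libraries. Its relative Irgm2 was at 50.6 CPM in High library 1, 5.33 CPM in High library 2, and 8.82 and 12.2 CPM in the Low libraries. Lgals3bp, a secreted glycoprotein, was at 136 CPM in High library 1, 17.8 CPM in High library 2, and 77.0 and 57.4 CPM in the Low libraries. All 3 were called higher in High library 1 (log2 3.03, 2.26 and 1.02, adjusted p = 1.39e-05, 2.06e-10 and 0.00277) and lower in High library 2 (adjusted p = 0.013, 0.0453 and 8.12e-08). The 2 genes called higher in High library 2 were the guanylate-binding genes Gbp4 and Gbp9, which were also called higher in High library 1. Gbp9 was at 36.0 and 26.3 CPM in the High libraries and 8.89 and 7.43 CPM in the Low libraries.

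Set together as 1 group against the Low pair, the High libraries gave no call among the members. Of the 38 members, 0 passed edgeR's test of High against Low, where 2.47% of all genes did (1.14% higher and 1.33% lower), against 4 at an unadjusted p under 0.05, 2 called by DESeq2 and 0 by limma-voom. The 4 were Ifnar2, Ddx58, Mx1 and Gbp2 (unadjusted p = 0.00305, 0.0381, 0.0298 and 0.0472). The median log2 fold change of the members was 0.49, against 0.03 over all genes tested, and was -0.03 with limma-voom. The group comparison averages libraries that lay on opposite sides of the Low pair, as for Ifit1, with a mean of 33.1 ± 43.0 CPM in the High libraries and 8.83 ± 0.0272 CPM in the Low libraries (SD, n = 2 each; log2 1.90 ± 1.56, adjusted p = 0.607). Leaving out a High library sets the other alone against the Low pair, which repeats the comparisons above. In those, the members' median log2 fold change was -0.80 in High library 2 and 1.23 in High library 1. Of the further interferon-induced genes, 1 of 51 passed (Gbp9, log2 1.94 ± 0.32, adjusted p = 0.0261), and Jak2 and Tlr3 passed among the pathway genes (adjusted p = 0.0308 and 0.0487).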

How the data were processed

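RNA was sequenced in 4 libraries, 2 High and 2 Low. Per the labels' protocols, libraries were strand-specific and made from 500 ng of DNase-treated total RNA. Per the submitters' processing notes, reads were handled with cutadapt 1.5, TopHat2 2.0.13 and Cuffdiff 2.2.1 and the genome build was mm10. The annotation and the strand setting were not given in the sources used here. Per the file headers, the deposited table holds, for every gene in every library, an estimated count of fragments, a scaled signal (the fragments multiplied by the authors' factor for each library, not used in a test) and the authors' FPKM. Of the counts, 99.18% were whole within 1e-06, and the rest were rounded, which changed no member. All 39 members had a usable status in every library, and 6666 genes had 0 fragments everywhere.

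Tests were two-sided quasi-likelihood tests in edgeR (4.0.16, with limma 3.58.1, R 4.3.3), with TMM normalisation, robust fitting, and removal of low counts by filterByExpr (minimum 10). P-values were adjusted over all 12987 genes tested by the Benjamini-Hochberg method, with a threshold of 0.05. High against Low was fitted with 2 groups (2 residual degrees of freedom, biological coefficient of variation 32.2%). Each High library was set against Low, and against the other High library, in a fit with 3 groups (1 residual degree of freedom, 17.2%). Scripts were tested on data simulated with the same spread in every library, close to that of the Low duplicates. That test did not cover the wider spread between the High libraries. Alternatives were DESeq2 (1.42.0) and its size factors, limma-voom, limma on the deposited log2(FPKM + 1) or log2(FPKM + 0.1), no filter on low counts, a replicate block and leaving out each library. CPM is TMM-normalised, and 3 fragments, the limit that a count of 0 allows, correspond to 0.107 to 0.216 CPM before that scaling. Intervals of ratios are exact, at 95%. The Low duplicates differed by more than sampling noise (chi-square per degree of freedom 28.1) and were kept as 2 samples. The labels do not call them separate cultures, so the p-values reflect spread between libraries that may be purely technical.

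All 39 members are accounted for: values per library are given for members called in any comparison and for receptor and transcription factor members, and the rest are summarised. Of other lists, genes called in a comparison may be named. From the lists of pathway genes and immune markers, 1 gene each is not reported here and is left out of the counts. The members and lists were chosen with earlier results of these data known. Gene positions are from GENCODE on GRCm38, the assembly of mm10, and promoters from RefSeq on GRCm38.p6.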

Additional observations from a re-analysis of the deposited data

Results flagged for a closer look

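For 25 members, High library 1 and High library 2 differed from each other by edgeR's test of that difference (adjusted p below 0.05), which sets their fold changes against the shared Low pair apart. All 25 were higher in High library 1. The log2 difference, High library 1 over High library 2, was 6.47 for Ifi44, 5.98 for Ifit3, 5.14 for Usp18, 4.56 for Ifit1, 3.96 for Irf7, 3.85 for Rtp4 and 3.54 for Ifit2. It was 3.44 for Mx2, 3.43 for Oas1a, 3.08 for Isg15, 3.07 for Oas3, 2.73 for Xaf1, 2.70 for Cmpk2, 2.67 for Gbp3 and 2.61 for Zbp1. For Oasl2 it was 2.45, for Irf9 2.43, for Parp14 2.03, for Bst2 1.68, for Stat2 1.53 and for Ifih1 1.5. The smallest were 1.49 for Eif2ak2, 1.49 for Gbp2, 1.45 for Ddx58 and 1.24 for Parp9. Groups of 2 libraries are too small for a check of samples that lie far from the rest.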

How the results depend on the processing

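High against Low called 321 genes. The count was 814 with no filter on low counts, 1161 with DESeq2, 0 with limma on log2(FPKM + 1) without a filter, and 0 to 2446 when each library was left out. The members called were 0, against 1 with no filter, 2 with DESeq2 and 0 to 24 when each library was left out. Their median log2 fold change of 0.49 was -0.035 with limma-voom, 0.082 with log2(FPKM + 1), -0.0094 with log2(FPKM + 0.1), 0.094 with log2(FPKM + 1) and no filter, and -0.80 to 1.23 when each library was left out. Of the further interferon-induced genes, 1 was called, against 3 with DESeq2, 0 with log2(FPKM + 1) and no filter, and 0 to 15 when each library was left out. Without either Low library, the fit called 0 genes. The Stat2 log2 fold change of 0.04 turned to -0.20 with limma-voom, -0.11 with log2(FPKM + 1), with or without a filter, -0.15 with log2(FPKM + 0.1) and -0.0023 without Low library 2. Irf9, at 0.50, turned to -0.066 with limma-voom. When each library was left out, Stat2 ranged from -0.92 to 0.62, Irf9 from -1.17 to 1.26 and Irf7, at 2.53 with all libraries, from -0.51 to 3.45, the lowest in each case without High library 1. None of these 3 was called in the main comparison, and the cause was not tested.

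The replicate numbers only name the libraries, and deviations of same-numbered libraries correlated at r = -0.18, so the block is an arbitrary pairing. With the replicate block, 469 genes were called, the members' median was 0.080 and Stat2 turned to -0.15. With the High numbers crossed, a replicate block chosen after seeing the data, 94 genes, 0 members and 0 further interferon-induced genes were called, the members' median was 0.12 and Stat2 was at -0.14.

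Against the Low pair, High library 1 called 2452 genes in either direction, High library 2 called 2247, and 1419 differed between the High libraries. With the dispersion of the 2-group fit, an alternative chosen after seeing the data like a filter that lets a gene pass on 1 library, these were 961, 988 and 445. Members then called higher in High library 1 were 12 (not 23), lower in High library 2 were 4 (not 16) and higher in High library 1 than in High library 2 were 15 (not 25). In the same directions, further interferon-induced genes were 7 (not 15), 6 (not 15) and 8 (not 23). The members' median in High library 2, -0.80, was -0.86 with no filter, -0.88 with DESeq2, -0.86 with the filter on 3 groups and -0.74 when either Low library was left out. That between the High libraries, 1.69, was 1.74 with DESeq2. Leaving out a Low library leaves these fits no residual degrees of freedom, so fold changes alone were computed there. Of the members called in a High library or between the High libraries, none turned direction in any alternative run for that comparison. At 3 to 12 fragments in High library 2 (Mx1, Oas1a, Ifi44, Usp18, Ifit3, Mx2, Oas3 and Cmpk2), depth limits the size of a fold change.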

Other observations

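Several further interferon-induced genes were called lower in High library 2 while High library 1 did not pass against the Low pair. Trim30a, a TRIM protein that restrains inflammatory signalling, was at 4.21 and 0.244 CPM in the High libraries and 3.31 and 4.24 CPM in the Low libraries (log2 -3.93 in High library 2, edgeR adjusted p = 4.11e-06). Sp100, a nuclear body protein, was at 4.44 and 0.204 CPM in the High libraries and 2.35 and 3.15 CPM in the Low libraries (log2 -3.73 in High library 2, edgeR adjusted p = 8.7e-05). Ifi47, an immunity-related GTPase, was at 27.0 and 5.41 CPM in the High libraries and 19.9 and 27.2 CPM in the Low libraries (log2 -2.13 in High library 2, edgeR adjusted p = 6.01e-07). Helz2, a nuclear helicase, was at 31.8 and 10.7 CPM in the High libraries and 33.9 and 40.1 CPM in the Low libraries (log2 -1.80 in High library 2, edgeR adjusted p = 7.2e-06). Others were called higher in High library 1 while High library 2 did not pass. Cxcl10, a chemokine that attracts T cells, was at 8.59 and 2.32 CPM in the High libraries and 2.86 and 2.56 CPM in the Low libraries (log2 1.67 in High library 1, edgeR adjusted p = 0.00341), and Ddx60, a helicase, was at 27.0 and 5.46 CPM in the High libraries and 6.02 and 6.73 CPM in the Low libraries (log2 2.08 in High library 1, edgeR adjusted p = 1.31e-07). Of 54 further interferon-induced genes with a matched promoter, 27 held the ISRE core in the 250 bases before the start (50%), as did 3.46% of all genes with a promoter.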
